A study of Mus musculus with 8 samples.

Results

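The genes examined here encode the spliceosome, the RNA and protein machine that removes introns from pre-mRNA, as measured by RNA-seq in 8 mouse libraries. They are the rows of the deposited table annotated with the KEGG pathway Spliceosome, without the Hspa heat shock genes (5 rows) and without Snu13, which is also annotated to ribosome biogenesis. This left 141 members of 22063 genes, and all 141 carry identifiers of the GENCODE M21 annotation of GRCm38. The members were chosen by their pathway, and the pathway itself was selected on measured values, because Spliceosome had led the pathways in an earlier comparison of the same tranilast and control libraries. The fold changes and calls of members below are therefore descriptions, and no p-value is given for them.

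Splicing starts when the U1 snRNP, a particle of U1 RNA and proteins, binds the start of an intron and the U2 snRNP binds near its end. The U4/U6 and U5 particles then join as a tri-snRNP, U4 and U1 leave, and the Prp19 complex holds the remaining particles in the form that catalyzes the reaction. The U1, U2, U4 and U5 snRNAs carry a ring of Sm proteins, U6 carries a ring of LSm proteins, SR proteins bind exons and mostly promote the use of nearby splice sites, and hnRNP proteins coat the transcript and often repress them.

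There were 4 libraries labelled as control and 4 labelled as control with tranilast, all from wild-type mice and all labelled as liver. Tranilast is an anti-allergic drug. The series design gives a high-fat, high-cholesterol (HFHC) diet for both groups, which the sample labels do not name, and the study describes male C57BL/6J mice that were 8 weeks old at grouping and received vehicle or tranilast by daily gavage for 8 weeks. The dose that the sequenced mice received, and whether each library came from 1 mouse, are not given in the sources used here, so the spread between libraries may be technical. The library totals were 14585153 to 15618787 counts with control and 12053036 to 14679386 with tranilast. A count of 0 is compatible with up to 3 counts, counting error alone considered, which is 0.192 to 0.249 CPM (counts scaled to 1 common library total).

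The labelled tissue was compared with marker genes. Of 10 hepatocyte markers, 4 had 0 counts in every library (Cyp3a11, Hnf4a, Serpina1a and Tat), and the summed level of the list was 0 to 1.23 CPM of the library total with control and 0 to 1.91 with tranilast. The 11 macrophage markers summed to 9334 to 9887 and to 9093 to 9688, whereas 3 of 5 Kupffer cell markers (Clec4f, Timd4 and Vsig4) were at 0 throughout. Not all macrophage markers were high. Lyz2, Csf1r and Cd14 held the most counts, whereas Mertk had 0 or 1 counts in a library, C1qa 0 to 11 and Aif1 11 to 25. The lists for stellate and endothelial cells (8 genes, with Lrat at 0 throughout) and for T, B and NK cells (6 genes, with Cd3e, Ms4a1, Ncr1 and Nkg7 at 0 throughout) stayed at or under 1.097 and 0.272 CPM. The libraries thus did not carry the defining transcripts of hepatocytes, and the groups are called control and tranilast below, not liver. The 8 proliferation markers summed to between 3866 and 4064 CPM with control and between 2761 and 2823 CPM with tranilast. Among them Mki67, Top2a, Ccnb1, Cdk1 and Tk1 were lower in every tranilast library than in every control library, Mcm2 and Mcm5 overlapped, and Pcna was higher, at 454 to 494 CPM with control and 511 to 539 CPM with tranilast. The part of these markers in the member counts below was not tested. In bulk RNA a smaller number of cells that hold a transcript and less of it per cell cannot be told apart.

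Of the 141 members, 125 had enough counts to be tested. Of the other 16, 14 had 0 counts in every library, and Rbm8a2 and Gm7324 never reached more than 14.99 counts. Those at 0 are predicted genes and the Eif4a3 copies Eif4a3l1 and Eif4a3l2. From here levels are given as CPM scaled between libraries by the TMM method and, where genes are compared with each other, as FPKM, in which the authors scaled reads for transcript length and depth. A gene was called when edgeR's quasi-likelihood test, adjusted by Benjamini-Hochberg over 10770 genes, fell under 0.05.

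Of the 125 tested members, 88 were called lower with tranilast and 8 higher. In the same comparison 28.8% of all tested genes were called lower and 28.2% higher, and because the pathway was selected on this contrast nothing is read from the difference. In 78 members the highest tranilast library was under the lowest control library, and in 6 the lowest tranilast library was over the highest control library, where the shares of all tested genes were 25.2% and 24.5%. The median log2 fold change (tranilast over control) was -0.22 in the members, which is a fall of 14.3%, and 0.01 in all tested genes. The changes were small in size. None of the members reached the absolute log2 fold change of 1.5 that the study set for differential expression, which 1.11% of all tested genes reached with a call, and the members ran from -0.69 for Snrpa1 to 0.51 for Srsf5. Scaling mattered for the split: with library size alone 62 members were called lower and 17 higher, beside 17.6% and 42.8% of all tested genes. That scaling moved the median of all tested genes to 0.12. The members lay 0.23 below the median of all genes under either scaling. A change of scaling shifts every gene by about the same amount, so this distance could not change and nothing is read from it.

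The libraries of a group were close to each other. The median deviation of the tested members from their own mean over the 8 libraries was 0.0838, 0.115, 0.116 and 0.116 in control libraries 1 to 4 on the log2 scale. It was -0.107, -0.117, -0.105 and -0.0987 in tranilast libraries 1 to 4. The groups did not overlap, and the same median over all tested genes lay between 0.0005 and 0.0068 in the 8 libraries. Summed over the members, the level was 22670 to 22842 CPM with control and 19116 to 19461 CPM with tranilast. Before scaling, members held 2.18% to 2.19% of the counts of a control library and 1.99% to 2.02% of those of a tranilast library.

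**Figure D1:**
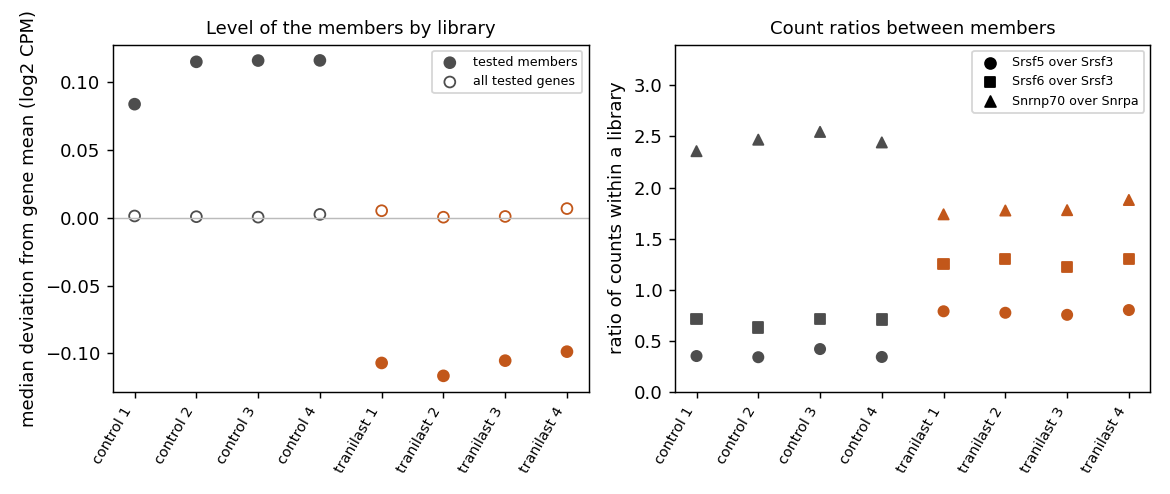
Left, the median deviation of the tested members (filled) and of all tested genes (open) from each gene's mean over the 8 libraries, in log2 CPM, by library (grey control, orange tranilast). Right, ratios of counts between pairs of members within each library. The control libraries sit between 0.0838 and 0.116 on the left and the tranilast libraries between -0.117 and -0.0987, and on the right the ratio of Srsf5 to Srsf3 rises from at most 0.417 to at least 0.752.

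The role groups did not move to the same extent. The lowest medians were those of the LSm proteins (-0.39), the Sm core (-0.37) and the hnRNP proteins (-0.31), followed by the U2 proteins (-0.26) and those of the U4/U6, U5 and tri-snRNP particles (-0.23). The SR proteins (-0.20), the exon junction, cap-binding and TREX proteins (-0.19) and the U1 and U1-related proteins (-0.15) lay in between. The Prp19 complex (-0.11) and the step factors and release helicases (-0.06) were nearest to the median of all genes, and both medians changed sign with library size alone and on the FPKM scale. The differences between role groups were not tested. Beside the counts given for each group below, 28.8% of all tested genes were called lower and 28.2% higher. Without overlap between groups, 25.2% of all tested genes lay below and 24.5% above.

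**Figure D2:**
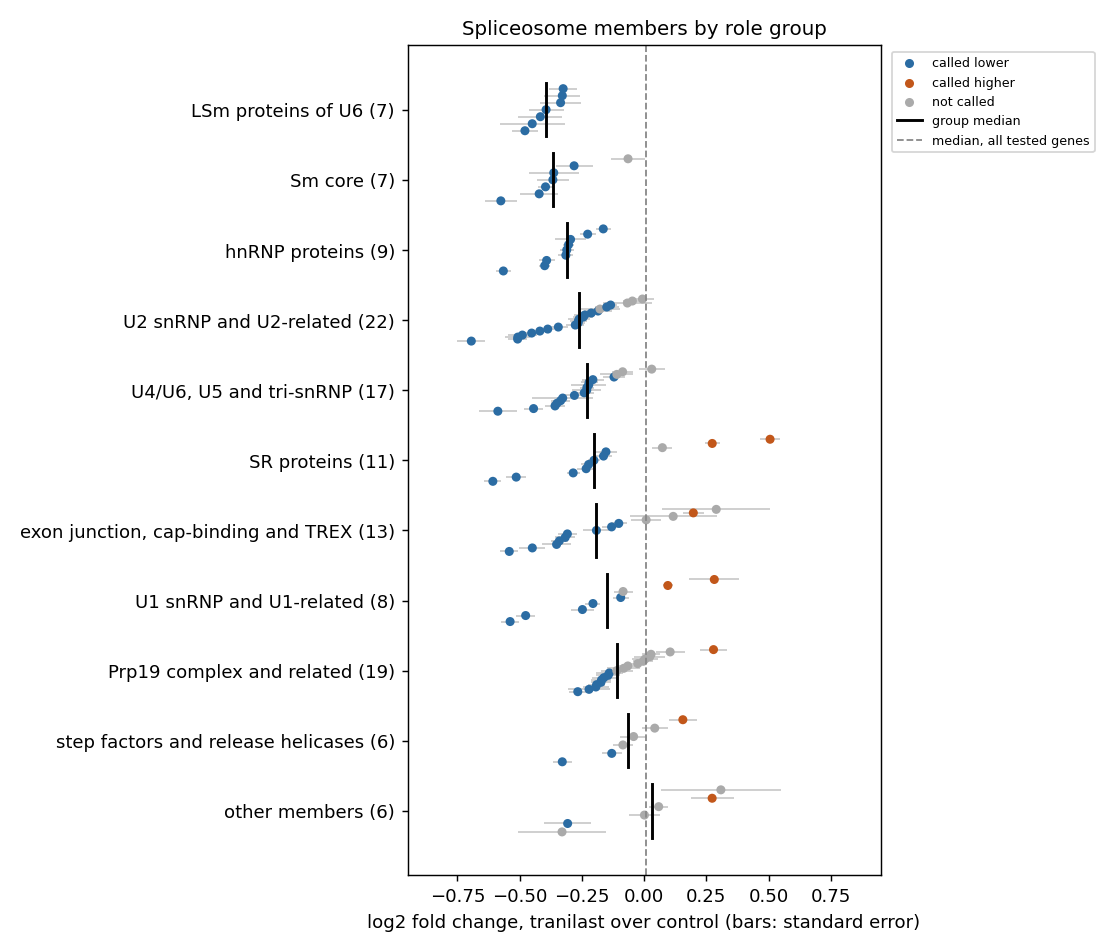
The log2 fold change of each tested member, tranilast over control, by role group with the number tested in brackets. Bars are standard errors of the edgeR fit, black lines are group medians, the dashed line is the median of all tested genes (0.01), and color shows members called lower (blue), called higher (orange) or not called (grey). All tested LSm and hnRNP members were called lower, beside 28.8% of all tested genes, and the SR proteins run from -0.61 to 0.51.

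The start of each gene was examined for the sequence that members share. The RefSeq promoter table (GRCm38.p6) holds windows from 250 bases before to 50 bases after the start for 93 of the 125 tested members, in 112 windows. The upstream 250 bases (218 for Srsf3, without bases that lie inside the GENCODE gene) are shown for the SR proteins with the lowest and the highest fold change, Srsf3 and Srsf5, for the export adaptor Alyref and for the U1 protein Snrnp70, each 5′ to 3′ on the strand of its gene. Capitals mark the letters of the motifs searched on both strands: ETS (CCGGAAG), the CCAAT box, the TATA box (TATAAA), NRF1 (GCGCATGCG) and E2F (TTTGGCGC). The windows lie at chr17:29032410-29032627 (plus strand, Srsf3), chr12:80945249-80945498 (plus strand, Srsf5), chr11:120598366-120598615 (minus strand, Alyref) and chr7:45395743-45395992 (minus strand, Snrnp70).
Srsf3: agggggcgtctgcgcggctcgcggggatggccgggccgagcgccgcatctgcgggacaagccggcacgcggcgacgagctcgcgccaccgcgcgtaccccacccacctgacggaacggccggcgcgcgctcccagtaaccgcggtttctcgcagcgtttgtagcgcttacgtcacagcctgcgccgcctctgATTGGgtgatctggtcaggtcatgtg
Srsf5: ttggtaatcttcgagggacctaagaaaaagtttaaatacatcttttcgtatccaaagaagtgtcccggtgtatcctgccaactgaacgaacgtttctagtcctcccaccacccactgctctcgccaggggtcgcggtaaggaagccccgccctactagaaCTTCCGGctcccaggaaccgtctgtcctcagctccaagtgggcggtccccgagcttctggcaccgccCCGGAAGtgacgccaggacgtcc
Alyref: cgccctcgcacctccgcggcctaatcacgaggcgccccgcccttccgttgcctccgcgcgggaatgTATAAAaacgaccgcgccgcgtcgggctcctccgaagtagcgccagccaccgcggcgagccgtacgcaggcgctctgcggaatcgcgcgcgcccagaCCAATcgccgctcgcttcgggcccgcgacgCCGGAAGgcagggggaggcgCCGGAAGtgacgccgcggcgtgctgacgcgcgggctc
Snrnp70: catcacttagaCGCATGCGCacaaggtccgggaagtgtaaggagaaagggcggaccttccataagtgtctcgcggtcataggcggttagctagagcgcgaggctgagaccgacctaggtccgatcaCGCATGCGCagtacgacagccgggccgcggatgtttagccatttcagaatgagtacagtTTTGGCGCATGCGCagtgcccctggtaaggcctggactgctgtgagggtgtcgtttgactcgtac

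These 4 sequences share no motif of the list in all of them. Srsf3 holds a CCAAT box at -58, counted from the RefSeq start, and a TATA box at -18, past the bases shown, and Srsf5 holds the ETS letters at -90 and -23. Alyref holds the ETS letters at -57 and -37 with a CCAAT box at -87 and a TATA box at -184. In Snrnp70 the NRF1 letters stand at -239, -124 and, in both orientations, at -61 and -60, where they overlap the E2F letters at -65. Across the windows of tested members the ETS letters were found in 38.4%, against 19.1% of the windows of all tested genes and 8.86% of all 32851 windows in the table. Members called lower held them in 36 of 82 windows (43.9%) and members called higher in 2 of 9 (22.2%). For the CCAAT box the shares were 42.9% in tested members, 38.6% in all tested genes and 37.4% in all windows, and for the TATA box 9.82%, 6.66% and 13.6%. NRF1 letters were found in 4.46%, 3.95% and 1.75%. The other motifs searched were the E-box (CACGTG), with 9.82%, 10.2% and 7.15%, YY1 (AAGATGG), with 10.7%, 7.52% and 6.34%, CHR (TTTGAA), with 10.7%, 12.3% and 17.9%, and E2F, with 3.57%, 2.16% and 1.07% for TTTCCCGC and 2.68%, 1% and 0.514% for TTTGGCGC. The median GC content was 59% in member windows and 52.7% in all windows, and it was not computed for the windows of all tested genes. A match describes letters only.

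The SR proteins moved in both directions. Of 11 tested, 8 were called lower and 2 higher, and Tra2a was not called. Srsf3 (ENSMUSG00000071172, chr17:29032628-29043373), a small SR protein that also takes part in mRNA export and in the choice of polyadenylation sites, stood at 426, 446, 396 and 418 CPM in control libraries 1 to 4 and at 277, 272, 286 and 273 CPM in tranilast libraries 1 to 4. Every tranilast library was below every control library by more than 100 CPM, with a log2 fold change of -0.61 (SE 0.034). Srsf5 (ENSMUSG00000021134, chr12:80945504-80950507) lay on the other side, at 149, 150.3, 165 and 142 CPM in the control group and at 218, 209.9, 215 and 218 CPM in the tranilast group. No control library reached the tranilast values, and the log2 fold change was 0.51 (SE 0.041), the highest of the members. Srsf6 (SRp55), which like Srsf5 has a pair of RNA recognition motifs, stood at 303, 280.3, 281 and 295 CPM and at 345, 353, 349.7 and 354 CPM (log2 fold change 0.27, SE 0.030). Its groups did not overlap either.

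Among the other SR proteins, Srsf9 was at 116 ± 3.84 CPM in the control group and at 81.5 ± 2.71 CPM in the tranilast group (SD, n = 4), a log2 fold change of -0.51. Srsf1, the founding member of the family known as ASF/SF2, went from 488 ± 8.79 to 400.5 ± 4.93 CPM (-0.28). Srsf7 (-0.23), Srsf10 (-0.22), Srsf2 (-0.20), Tra2b (-0.16) and Srsf4 (-0.15) were also called lower, Srsf4 with overlapping groups. Tra2a stood at 86.5 to 94.8 CPM and at 95.3 to 97.3 CPM, which did not overlap, with a log2 fold change of 0.07 that was not called. Per length, Srsf2 was the most abundant SR transcript in the control group with 286 ± 3.94 FPKM, followed by Srsf1 with 184 ± 6.54 and Srsf3 with 160.5 ± 7.11 FPKM. In the tranilast group Srsf3 (116 ± 4.56 FPKM) lay below Srsf5 (148 ± 2.64) and Srsf6 (147 ± 1.87), both of which had been below it in the control group (96.0 ± 6.03 and 113 ± 3.85). Neighbors in this order whose SDs overlap, such as Srsf5 and Srsf6 with tranilast, cannot be ordered. Summed over the 11 SR proteins, the level went from between 2825 and 2927 CPM to between 2544 and 2616 CPM, whereas the summed FPKM values met at the edge, with 1311 to 1354 with control and 1276 to 1311 with tranilast.

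**Figure D3:**
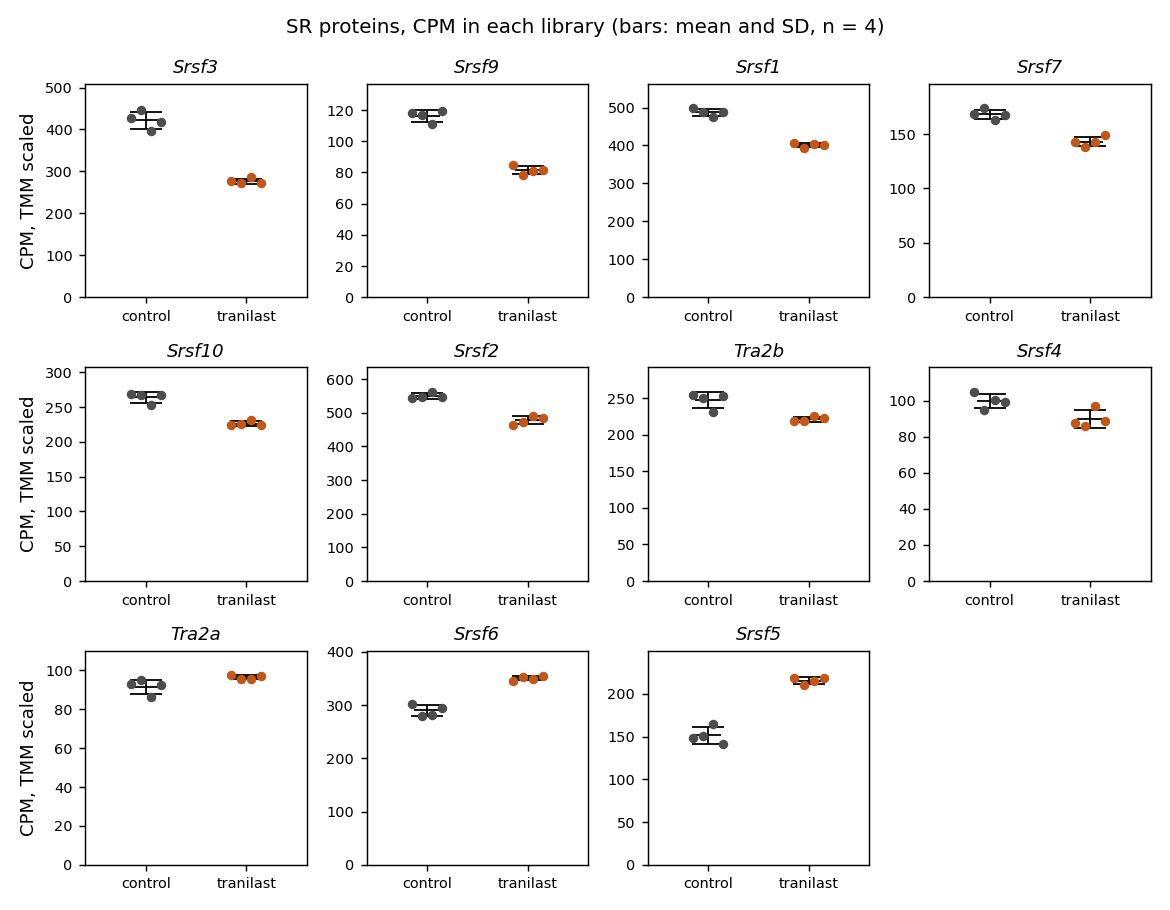
CPM of the 11 SR proteins in each library, ordered by log2 fold change, with the group mean and SD (n = 4 libraries a group) and each axis starting at 0. Srsf3 (-0.61) and Srsf9 (-0.51) have the lowest log2 fold changes. Srsf3 lies at 272 to 286 CPM with tranilast against 396 to 446 with control, and Srsf6 and Srsf5 lie higher with tranilast.

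A ratio of counts between members within a library does not depend on how libraries are scaled. The counts of Srsf5 over those of Srsf3 were 0.349, 0.337, 0.417 and 0.339 in control libraries 1 to 4 and 0.787, 0.773, 0.752 and 0.799 in tranilast libraries 1 to 4, which is 2.16 times higher in the mean. The ratio of Srsf6 to Srsf3 went from 0.689 ± 0.0402 to 1.27 ± 0.0370 (SD, n = 4), and that of Srsf6 to Srsf1 from 0.594 ± 0.0158 to 0.875 ± 0.0191. These ratios compare counts, not levels per length. The pairs here and below were picked without a rule and with earlier results of these data known. They set genes with unlike fold changes against each other, so nothing is read from the lack of overlap. The ratios rest on the same contrast that selected the pathway and are given as descriptions.

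The hnRNP proteins were all called lower. In all 9 tested members the groups did not overlap, and the log2 fold changes ran from -0.57 for Hnrnpa3 to -0.16 for Hnrnpc. Of all tested genes, 28.8% were called lower and 25.2% lay lower without overlap. Hnrnpa3 (ENSMUSG00000059005, chr2:75659261-75669407), a relative of the splicing repressor Hnrnpa1, stood at 973, 1022, 1008 and 953 CPM in control libraries 1 to 4 and at 661, 633, 696 and 685 CPM in tranilast libraries 1 to 4. Per length it was the most abundant member in the control group, with 546 ± 15.98 FPKM (SD, n = 4), whereas its 386 ± 22.5 FPKM in the tranilast group came after Ddx5 (438), Hnrnpk (396) and Hnrnpu (391), with SDs that overlapped those of the last pair. In the control group Hnrnpk (514 FPKM), Hnrnpu (452) and Hnrnpa1 (406) came next, and their log2 fold changes were -0.40, -0.30 and -0.39. Hnrnpu, a nuclear matrix and chromatin-bound RNA-binding protein, had the most counts of any member, at 1543 to 1566 CPM with control and 1221 to 1304 CPM with tranilast. Hnrnpc, which binds uridine tracts, had the smallest change of the group, from 317 ± 11.5 to 283 ± 3.50 CPM, and was not called with library size alone (-0.05) or on the FPKM scale (-0.02). Summed over the 9 genes the level was 5690 to 5799 CPM with control and 4427 to 4553 CPM with tranilast, and the FPKM sums were apart as well (2666 to 2709 and 2179 to 2252). Rbmx (-0.30) and its retrogene copy Rbmxl1 (-0.23) share sequence, and Rbmxl1 had fractional counts in all 8 libraries, whereas those of Rbmx were whole in all 8, and whether the pair shares reads was not tested.

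The transcripts for the LSm and Sm ring proteins were lower as groups, and the rings themselves were not measured. All 7 LSm proteins were called lower without overlap, from -0.48 (Lsm2) to -0.32 (Lsm4). Lsm2 (ENSMUSG00000007050, chr17:34981862-34985891) stood at 55.6, 56.8, 62.1 and 57.4 CPM in the control group and at 41.1, 43.9, 42.2 and 39.5 CPM in the tranilast group. Lsm4 was at 49.6 to 58.1 CPM and at 41.6 to 44.6 CPM. The LSm group summed to 258 to 271 CPM in the control libraries and to 201 to 207 CPM in the tranilast libraries, a narrow range in both.

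Of the 7 Sm proteins, 6 were called lower. Snrpd1 was at 78.7, 95.2, 89.0 and 80.7 CPM in the control group and at 61.0, 51.3, 56.6 and 61.5 CPM in the tranilast group, with a log2 fold change of -0.58 (SE 0.064). Snrpb, which encodes SmB, was the most abundant of the ring per length (206 ± 2.45 FPKM in the control group). It was at 245 to 253 CPM with control and up to 193 CPM with tranilast (-0.40). Snrpe (-0.42) and Snrpd3 (-0.37) also did not overlap between groups. Snrpg (-0.36) and Snrpf (-0.28) were called with overlapping groups, and Snrpf reached 59.1 CPM in tranilast library 4 against 57.8 CPM in control library 1. Snrpd2, the partner of Snrpd1 in the ring, was not called, at 36.6 to 44.2 CPM and 34.7 to 39.4 CPM (log2 fold change -0.06, SE 0.067), and its sign changed under other scalings.

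The U2 proteins held the lowest fold change of the members. Of 22 tested, 18 were called lower, none of the 22 was called higher, and the same 18 had no overlap between groups. Snrpa1 (ENSMUSG00000030512, chr7:66059003-66074587) encodes the U2 snRNP A' protein, which binds U2 snRNA together with the B'' protein (Snrpb2). It stood at 55.0, 58.5, 55.2 and 54.6 CPM in control libraries 1 to 4 and at 31.4, 34.7, 34.2 and 37.6 CPM in tranilast libraries 1 to 4, a log2 fold change of -0.69 (SE 0.057). Snrpb2 had a log2 fold change of -0.26, and the count ratio of Snrpa1 to Snrpb2 went from 0.779 ± 0.0145 to 0.577 ± 0.0422 (SD, n = 4), without overlap. Ddx46, the Prp5 helicase that acts as U2 joins the intron, was at 189 ± 4.72 and 133 ± 6.22 CPM (-0.51). On the FPKM scale its groups overlapped (31.3 to 39.7 and 23.9 to 41.0), and it was not called there (-0.28). Sf3a2 was at 104, 106, 115 and 108 CPM and at 74.3, 73.2, 84.4 and 73.4 CPM (-0.51), with fractional counts in all 8 libraries. Sf3b1, the scaffold of the SF3b complex around the branch point, was at 530.2 to 548 CPM and 405 to 424 CPM (-0.39). U2af2, the large U2AF subunit, which reads the polypyrimidine tract and was the most abundant of the group per length (155 ± 2.14 FPKM), went from 348 ± 5.38 to 289.7 ± 8.75 CPM (-0.26). Puf60, a U2AF-related protein, was not called and overlapped, at 125 to 133 CPM and 119 to 136 CPM (-0.01).

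Of 17 proteins of the U4/U6, U5 and tri-snRNP particles, 14 were called lower, 10 of the 17 had no overlap between groups, and none was called higher. Prpf8 (ENSMUSG00000020850, chr11:75486816-75509449), the U5 protein at the catalytic center, stood at 885, 853, 879 and 879 CPM in the control group and at 691, 681, 698 and 672 CPM in the tranilast group. It was the most abundant of the group per length (113 ± 2.04 FPKM), and its log2 fold change was -0.35 (SE 0.023). Txnl4a, the small U5 protein Dim1, had the lowest fold change, from 33.3 to 39.5 CPM down to 21.6 to 25.8 CPM (-0.59, SE 0.075), with fractional counts in all 8 libraries. Prpf31, which joins U4/U6 to U5, was at 135 ± 1.41 and 99.6 ± 4.02 CPM (-0.44). Prpf4, a U4/U6 protein, was not called, at 49.9 to 56.1 CPM and 51.7 to 56.7 CPM (0.03).

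The group of U1 and U1-related proteins was split. Of 8 tested, 5 were called lower and 2 higher. The 2 called higher were Ddx5 and Prpf40b, counted here as U1-related, and none of Snrnp70, Snrpa and Snrpc was higher. Snrnp70 (ENSMUSG00000063511, chr7:45376453-45395742) encodes U1-70K, the U1 protein that SR proteins contact. It stood at 289, 287, 322 and 301 CPM in control libraries 1 to 4 and at 205, 205, 206 and 209.7 CPM in tranilast libraries 1 to 4, a log2 fold change of -0.54 (SE 0.036). Snrpa, which encodes the A protein of U1, was not called, at 116 to 127 CPM and 112 to 118 CPM (-0.08), and Snrpc (U1-C) had a log2 fold change of -0.25. The count ratio of Snrnp70 to Snrpa accordingly went from 2.45 ± 0.0780 to 1.79 ± 0.0602 (SD, n = 4). Ddx5, the RNA helicase p68, was called higher by a small amount, at 1111 to 1146 CPM and 1194 to 1212 CPM (0.10, SE 0.020), and was among the 5 most abundant members per length (399 ± 17.7 FPKM with control). The count ratio of Ddx5 to Hnrnpu went from 0.725 ± 0.0118 to 0.957 ± 0.0261. Prpf40b was called higher with overlapping groups at a low level, 10.7 to 13.4 CPM and 13.2 to 15.97 CPM (0.28, SE 0.101). That call was not firm: Prpf40b was called in 14 of 20 alternative settings, and Ddx5 in all 20.

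The Prp19 complex and the step factors had smaller median changes than the groups above, a difference that was not tested. In the Prp19 complex and its relatives 9 of 19 were called lower and 1 higher. Prpf19, the ubiquitin ligase that names the complex, was at 229 ± 5.71 and 201 ± 6.67 CPM (-0.19), and Wbp11, at the low end, at 153 ± 2.94 and 128 ± 4.79 CPM (-0.27). Crnkl1 (ENSMUSG00000001767, chr2:145917479-145935014), the crooked neck protein of the complex, was the member called higher, at 53.6, 55.7, 62.4 and 62.3 CPM in the control group and at 71.5, 74.4, 70.5 and 67.7 CPM in the tranilast group (0.28, SE 0.054), without overlap. Among 6 step factors and release helicases, 2 were called lower (33.3%) and 1 higher (16.7%), beside 28.8% and 28.2% of all tested genes. Dhx38, the helicase Prp16, was at 113 to 119 CPM and 87.1 to 94.3 CPM (-0.33). Slu7, which acts at the second step, was called higher with overlapping groups, at 46.3 to 53.7 CPM and 53.0 to 59.0 CPM (0.16), and Prpf18 was not called (0.04).

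Of 13 tested exon junction, cap-binding and TREX proteins, which mark spliced mRNA and pass it to export, 9 were called lower and 1 higher. Alyref (ENSMUSG00000025134, chr11:120592121-120598365), the export adaptor, stood at 144, 148, 146 and 149 CPM in control libraries 1 to 4 and at 97.6, 102, 98.2 and 105 CPM in tranilast libraries 1 to 4 (-0.54, SE 0.037). Ddx39b, the helicase UAP56 that recruits it, was the most abundant of the group per length (156 ± 8.25 FPKM) and changed little, from 246 ± 7.11 to 229.7 ± 4.98 CPM (-0.10, and 0.02 with library size alone). Thoc2, the large scaffold of the THO complex, was called higher, at 136 to 154 CPM and 161 to 174 CPM (0.20, SE 0.041). Its copy Thoc2l (0.27) was also called higher and overlapped. Counts of these 2 genes, and of Magoh and Magohb (-0.35 and 0.29, the latter not called at under 4 CPM in the mean), were whole in all 8 libraries. Whether either pair shares reads was not tested.

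The members outside these groups are mostly predicted genes and gene copies. Of 21 listed, 6 were tested, 1 was called lower (Gm7879) and 1 higher (Thoc2l). Gm45140 was not called (-0.33, SE 0.175).

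Splicing genes outside the pathway were described for 5 lists of 74 genes, of which 73 were tested, 39 were called lower and 9 higher, beside the 28.8% and 28.2% given above. Of 23 hnRNP and related proteins that the pathway does not hold, 19 were called lower and 1 higher, with a median log2 fold change of -0.28. Hnrnpd (AUF1, ENSMUSG00000000568, chr5:99955935-99978938), which binds AU-rich elements and takes part in mRNA decay, had the lowest value, at 257, 276, 259 and 251 CPM in the control group and at 115, 116, 127 and 116 CPM in the tranilast group (-1.14, SE 0.040). The highest of that list was Taf15, at 84.8 to 101 CPM and 98.7 to 115 CPM (0.16).

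The SR protein kinases, which phosphorylate SR proteins, moved in both directions. Of 9 listed, 8 were tested, 2 were called lower (25%) and 3 higher (37.5%), with a median of -0.00. These shares are near the 28.8% and 28.2% of all tested genes, and nothing is read from the counts. Srpk2 (ENSMUSG00000062604, chr5:23503264-23684617) stood at 35.3, 37.0, 36.4 and 34.6 CPM in the control group and at 51.8, 49.4, 54.3 and 54.4 CPM in the tranilast group (0.55, SE 0.052). Clk1 was at 45.6, 52.6, 51.9 and 54.8 CPM and at 67.2, 73.7, 73.5 and 75.1 CPM (0.50, SE 0.056). Both were above the control range in every tranilast library. Clk4 was also called higher (0.21), Srpk1 (-0.15) and Clk3 (-0.13) were called lower, and Dyrk1a (-0.08), Clk2 (-0.02) and Prpf4b (0.01) were not called. These smaller calls were not firm: Clk4 was called in 15 of 20 alternative settings, Srpk1 in 16 and Clk3 in 9, with log2 fold changes of -0.04 and -0.01 for Srpk1 and Clk3 at the least. The count ratio of Srpk2 to Srpk1 went from 0.236 ± 0.00743 to 0.383 ± 0.0135 (SD, n = 4), a 1.62-fold increase. Srpk3 did not pass the filter.

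Of 9 minor spliceosome proteins, which remove the rare U12-type introns, 2 were called lower and 1 higher (median -0.03), from Pdcd7 (-0.32) to Rnpc3 (0.32). The shares of all tested genes were 28.8% lower and 28.2% higher. Of 16 nuclear speckle and SR-related proteins, 8 were called lower and 2 higher (median -0.10), from Sap18 (-0.34) to Zranb2 (0.23). Of 17 proteins of snRNP assembly and import, 8 were called lower and 2 higher (median -0.14), from Smn1 (-0.29), the protein that loads Sm rings onto snRNAs, to Gemin7 (0.22).

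**Figure D4:**
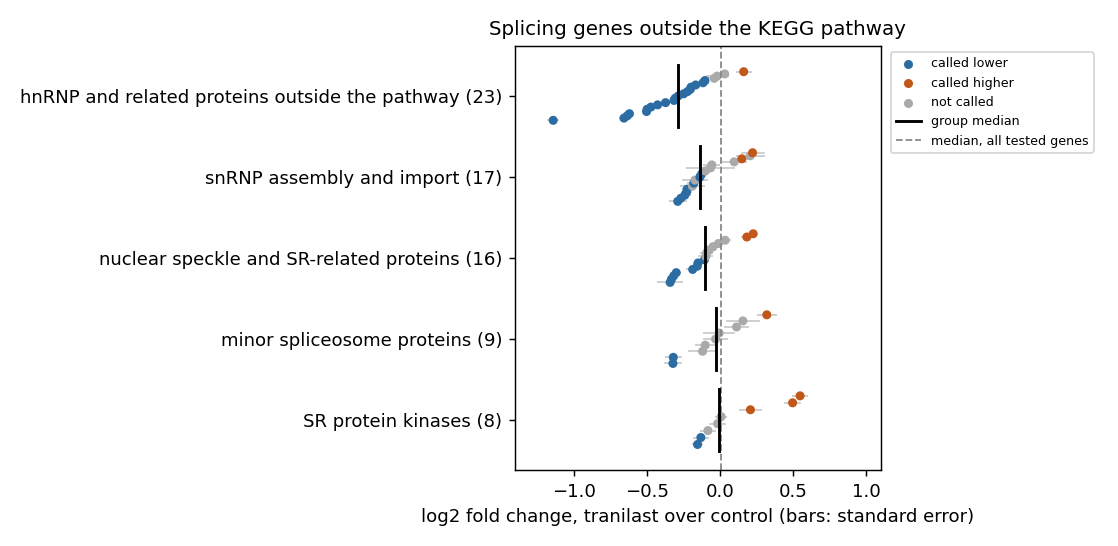
The log2 fold change, tranilast over control, of splicing genes that are not in the pathway, by list with the number tested in brackets. Bars are standard errors, black lines are list medians, the dashed line is the median of all tested genes, and color shows the call. The list of hnRNP and related proteins has its median at -0.28 with Hnrnpd at -1.14, and the SR protein kinases spread from -0.15 to 0.55.

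The members also differed from all tested genes in level. Whether the choice of the pathway favored genes of high level was not tested. The median control level was 48.5 FPKM in the 125 tested members and 13.9 FPKM in all tested genes. The log2 fold change went down with the log2 of the control FPKM, with Pearson's r of -0.39 and Spearman's rho of -0.35 across the 125 members, and of -0.35 and -0.41 across all 10770 tested genes. Genes are not independent replicates, both quantities share the control libraries, and the part of the level in the members' fold changes was not tested. Against GC content, r was -0.04 and rho 0.01 across the members.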

How the data were processed

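RNA-seq of 8 libraries was analysed, 4 a group, grouped by the sample labels. Per the study's methods, poly-A RNA was sequenced as paired-end libraries on a HiSeq X-ten, whereas the labels name a NovaSeq. The aligner, counting tool and genome build are not given in the sources used here. The table that the authors deposited gives each gene an estimated count, whole in 92.7% to 93.9% of values, and an FPKM value, in which they scaled reads for length and depth. Counts of 20 tested members were fractional in at least 1 library and were rounded.

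The whole table was fitted in edgeR 4.0.16 (R 4.3.3) with filterByExpr by group, TMM scaling, its quasi-likelihood test, Benjamini-Hochberg adjustment and no covariate. TMM factors were 0.956 to 0.965 with control and 1.037 to 1.045 with tranilast. Fold changes and standard errors are those of this fit, and standard deviations are over 4 libraries. The study's methods name limma with an absolute log2 fold change of 1.5.

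The members, role groups, lists and tests were chosen with earlier results of these data known. Genes were named by a rule: with a mean count of at least 50, the lowest, the highest and the most abundant per length of each role group, the 10 lowest and 5 highest members, all Sm and SR proteins, the lowest and highest of each other list and all SR protein kinases. Snrpa, Snrpc, Snrpb2, Sf3b1, Prpf31, Hnrnpa1, Hnrnpk, Hnrnpu, the paralog pairs and Gm7879 were named after their values were seen. Within-group library pairs varied 2.50 to 5.47 times as much as counting error, so no pair agreed within sampling noise. Replicate numbers were not treated as a pairing in the main fit. Coordinates are 1-based, on GRCm38. Alternatives were other scalings, DESeq2 1.42.0, limma 3.58.1 (voom, and trend on log2 of FPKM plus 1 or 0.1), filters, thresholds, GC and length trends (known for 10753 of 10770 genes), thinning, a replicate block and each library left out. The code was tested on simulated data. Tables were handled in Python 3.11.15 with pandas 2.3.3 and numpy 2.4.6. Whether paralogs share reads was not tested. The values of 1 member are not reported here.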

Additional observations from a re-analysis of the deposited data

Results flagged for a closer look

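In 10 of 122 pairs of a named gene and a group of 4 libraries, 1 library lay far from the others, by Dixon's 95% critical value of the gap over the range, which chance gives in about 1 in 20 pairs. Among SR proteins, Srsf2 was at 561 CPM in control library 3 against 545 to 547 in the others, and Srsf10 at 252.7 CPM in control library 3 against 267 to 269. Among Sm proteins, Snrpd2 was at 44.2 CPM in control library 2 against 36.6 to 37.5, and Snrpd3 at 50.3 CPM in tranilast library 4 against 44.6 to 45.5. Among U1 and U2 proteins, Snrnp70 was at 209.7 CPM in tranilast library 4 against 205 to 206, Snrpa1 at 58.5 CPM in control library 2 against 54.6 to 55.2, and Sf3a2 at 84.4 CPM in tranilast library 3 against 73.2 to 74.3. Txnl4a was at 39.5 CPM in control library 1 against 33.3 to 33.8, and Dhx38 at 87.1 CPM in tranilast library 4 against 93.4 to 94.3. Outside the pathway, Hnrnpd was at 127 CPM in tranilast library 3 against 115 to 116. Apart from Snrpd2, which was not called, the groups of these genes did not overlap.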

How the results depend on the processing

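The fit called 88 members lower and 8 higher (28.8% and 28.2% of all tested genes), with a median log2 fold change of -0.22. The same counts were obtained with DESeq2, limma-voom and RLE factors, beside 27.8% to 29.0% of all tested genes lower and 26.7% to 28.1% higher. A replicate block also gave 88 lower and 8 higher (28.3% and 27.5% of all tested genes) and a median of -0.22. The same-numbered libraries correlated at -0.056, -0.044, 0.0076 and 0.107, within the range of -0.179 to 0.180 of differently numbered ones. These correlations show no pairing by number but cannot exclude a weak one. With library size alone the members' median was -0.11 with 62 called lower and 17 higher, with upper-quartile factors -0.16 with 72 lower and 12 higher (21.6% and 36.04% of all tested genes), and with limma on log2 FPKM -0.11 with 59 lower and 13 higher for pseudocounts of both 1 and 0.1 (15.4% and 36.8% of all tested genes). With the GC and length trends removed it was -0.21. Relative to the median of all tested genes, the members lay at -0.23, at -0.21 with FPKM plus 1, at -0.26 without an expression filter and at -0.22 with the GC and length trends removed. Scalings of the libraries shift all genes alike, so they leave the -0.23 nearly unchanged. An adjusted p under 0.01 left 5 called higher and 77 lower (21.1% and 23.4% of all tested genes). Over the fits that left out 1 library each, 83 to 90 were called lower and 6 to 8 higher. Of all tested genes, 26.5% to 27.8% were called lower and 25.7% to 26.9% higher in those fits. The members' medians there were -0.24 to -0.22 and their relative medians -0.24 to -0.22. The sign of the step factor median turned with upper-quartile factors (0.0040), library size alone (0.053) and FPKM plus 1 (0.049) or 0.1 (0.051), and that of the Prp19 median with library size alone (0.0070) and FPKM plus 1 (0.0019) or 0.1 (0.0018). The median of the other members was 0.03, and -8.03e-05 without control library 2 to 0.047 without tranilast library 2, and Ddx39b was at 0.015 with library size alone. The cause was not tested. The role group medians under upper-quartile factors and FPKM were added after seeing the data. Of the named genes not called, Clk2, Dyrk1a, Prpf4, Prpf4b, Puf60 and Snrpd2 changed sign under some alternative. Of 51 named genes called, 32 were called in all 20 alternatives and 19 lost the call in at least 1, among them the members Ddx39b, Ddx46, Hnrnpc, Prpf19, Prpf40b, Slu7, Snrpd3, Snrpf, Snrpg, Srsf4, Tra2b and Wbp11. Thinning to the smallest library left 88 lower and 8 higher (28.1% and 27.3% of all tested genes).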
